A study of Homo sapiens with 30 samples.

Results

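Of 4437 regions that held a MYC ChIP-seq peak in DMSO-treated DTMYC cells, 359 still overlapped a peak after dTAG47, and these 359 regions are described here. A region was made by merging overlapping peaks of both DMSO libraries, replicates 1 and 3, and it was kept as still called when at least 1 base of it overlapped a peak in any of the 3 dTAG47 libraries. The remaining regions were 790 with a peak in both DMSO libraries and 3288 with a peak in 1 DMSO library, none of which overlapped a dTAG47 peak. Because the peak calls and their scores chose the regions, peak calls and scores are given as a description with no test, and location, sequence, open chromatin, RNA and nascent RNA were not used by the choice.

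MYC is a transcription factor that binds DNA as a dimer with MAX, most tightly at the palindrome CACGTG, called an E-box, and it is found at the start sites of many active genes. Genes for ribosome biogenesis, translation, nucleotide synthesis and mitochondria are classic MYC targets. The dTAG system fuses a protein to a mutant FKBP12 domain, and a bifunctional small molecule such as dTAG47 joins that domain to a ubiquitin ligase, so that the fusion is degraded.

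G401 is a human rhabdoid tumour line of the kidney, a tumour type defined by loss of the SWI/SNF subunit SMARCB1. DTMYC cells are G401 cells that carry a lentiviral MYC with an N-terminal HA-FKBP12F36V tag and that lost their own MYC gene to CRISPR-Cas9, and parental cells are G401 without either change. The ChIP-seq libraries were DTMYC cells in 500 nM dTAG47 for 4 h (replicates 1, 2 and 3) and in DMSO for 4 h (replicates 1 and 3). Nascent RNA was measured by PRO-seq, which maps engaged RNA polymerase, in DTMYC cells after 4 h in 500 nM dTAG47 or in DMSO (2 libraries each). ATAC-seq, which maps open chromatin, used DTMYC cells after 24 h in 500 nM dTAG47 or in DMSO (3 libraries each), and RNA-seq used DTMYC and parental cells after 24 h in either (3 libraries per group). The labels name MYC as the ChIP antibody and the deposited lists are named for HA, whether DTMYC is 1 clone is not given in the sources used here, and IgG libraries were not analysed here. No label says that the replicates were separate cultures, so each p-value reflects the spread among the samples at hand, which may be technical.

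Some libraries stood apart. The dTAG47 ChIP-seq lists held 408, 7 and 193 peaks in replicates 1, 2 and 3, against 4010 and 1519 in the DMSO lists of replicates 1 and 3, and replicate 2 supplied 3 of the 359 regions. How many reads lie behind each peak list is unknown. RNA-seq libraries held 27854207 to 54633745 counts and PRO-seq libraries 18209879 to 23256313 counts in gene bodies. In the fit that all 12 RNA-seq libraries share, more genes were called without parental DMSO replicate 3, and counts are given with and without it below. Leaving it out also moved log2 fold changes in DTMYC cells. Their median went from −0.17 to −0.20 for genes at still-called regions and from 0.03 to 0.000152 over all genes tested. Why the calls depend on this library was not tested. MYC mRNA is given as 1 value per library, which does not separate the transgene from the endogenous locus. In CPM, counts scaled to the size of the library, it was 1478, 1404 and 1349 in DTMYC dTAG47 libraries and 1329, 1353 and 1418 in DTMYC DMSO libraries. The log2 fold change was 0.05 (adjusted p = 0.801, edgeR), so the RNA level carries no check of protein loss. No region lay at the MYC gene. The blood marker PTPRC had 1 count over all 12 libraries, while VIM was at 678 to 692 CPM in DTMYC dTAG47 libraries and 616 to 626 CPM in DTMYC DMSO libraries.

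Of the 20 top-ranked still-called regions on numbered chromosomes and X, 17 held at least 1 copy of the E-box. A copy lay anywhere in 65.0% of all still-called regions of these chromosomes. It did so in 59.2% of regions of both DMSO libraries that were not called and in 31.3% of regions of 1 DMSO library. Median widths of these classes were 832, 718 and 464.5 bases, and a wider region has more room for a copy. The windows below are 30 bases of the hg19 plus strand around the copy nearest the dTAG47 peak, with that copy in capitals. The rank is by the lower of both DMSO scores among the 66 regions of these chromosomes with peaks in both DMSO libraries and in at least 2 dTAG47 libraries, which leaves out 3 such regions on other contigs. Shown first are 9 of the 17.
SNHG15: gagaggaagtagCACGTGtagtgaaggctt
ENSG00000286874: ctgccggggcgcCACGTGgtgcgcacgtgg
SNX5: gggcaaagacgcCACGTGgggcctaccctt
DDX42: gctgtgtgggacCACGTGgccagaggcaag
PPRC1: ccttttcggagcCACGTGgggttgggggag
MAT2A: tgcagcggcgacCACGTGtttgccgcatgt
SNHG17: gtctgacgaccgCACGTGgccggctcagca
EIF5A: gctcagcgcggcCACGTGaggtgggggagg
NPM1: aaccgctgggagCACGTGgttgccacgtgg

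The next windows, drawn the same way, are from still-called regions whose genes had lower mRNA after dTAG47, as given further on. Genes were taken in order of p, and regions with no copy of CACGTG were passed over. These windows thus do not show how often such genes had a copy.
NOP56: gcggaggagcaaCACGTGgcccagcaaaag
HK2: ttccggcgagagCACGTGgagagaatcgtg
YBX3: aagcgccaggccCACGTGtcggtccttccc
MYBBP1A: cgaaacacgaaaCACGTGtgctccggcccc
TFAP4: gcagaggaaaccCACGTGcggcgggaagct
PLD6: agcgccaacggcCACGTGccaggccacgtg

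The SNHG15 window is chr7:45026006-45026035, in a non-coding exon 141 bases from the annotated start of SNHG15, a long non-coding RNA that carries a small nucleolar RNA (snoRNA). The MYBBP1A window is chr17:4458635-4458664, in an untranslated exon 6 bases from the start of the gene, and the NOP56 window is chr20:2632510-2632539, between genes and 717 bases before the start. The HK2 window is chr2:75062136-75062165, in an intron of an annotated transcript and 149 bases before the nearest start site. The region at PPRC1 held 5 copies of CACGTG, and the regions at TFAP4 and PLD6 held 4 each.

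A small set of still-called regions had no E-box within 100 bases of the midpoint and was rich in the pentamer GGAAT. The other strand of this pentamer reads ATTCC. These 5 regions held 18 to 26 copies around their midpoints, while every other DMSO region held at most 8 and the median was 0. They lay 3388 to 20875 bases from an assembly gap, and 60 bases of the first and of the highest-scoring one are shown with the pentamer in capitals.
chr10 repeat: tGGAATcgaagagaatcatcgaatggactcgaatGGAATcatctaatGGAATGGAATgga
chr16 repeat: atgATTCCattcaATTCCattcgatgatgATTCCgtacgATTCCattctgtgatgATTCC
The first stretch is chr10:42599905-42599964 and the second is chr16:46405430-46405489, both intergenic on hg19.

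By library, 229 of the 359 regions were called in dTAG47 replicate 1 only, 52 in dTAG47 replicate 3 only, 75 in both of these, 1 in replicates 1 and 2 and 2 in all 3. Both DMSO libraries had a peak in 278 of them and 1 DMSO library in 81. Without dTAG47 replicate 1 the regions numbered 130, so that library decides how many there are. On the numbered chromosomes and X lay 337 regions, 17 were on other contigs, 4 on the mitochondrial genome and 1 on Y.

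The authors' peak score is 10 times the −log10 q value that MACS2 reports, and it grows with enrichment and with depth, so scores of libraries with different depth are set side by side only. In DMSO replicate 1 the median score was 217 for still-called regions, against 91 for regions of both DMSO libraries that were not called after dTAG47 and 52 for regions of 1 DMSO library. In DMSO replicate 3 the same medians were 97, 54 and 35. Many of the regions still called were thus those with the highest DMSO scores.

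The share of regions still called was highest at the top of the DMSO scores. In the lowest 8 of 10 score deciles of DMSO replicate 1 between 0.518% and 6.22% of regions were still called, in the next decile 22.8% and in the top decile, with scores of 211 and more, 45.9%. In DMSO replicate 3 the share was 4.17% in the lowest decile and 63.4% in the highest. Of the 50 regions with the highest lower DMSO score, 38 were still called and 12 were not.

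**Figure D1:**
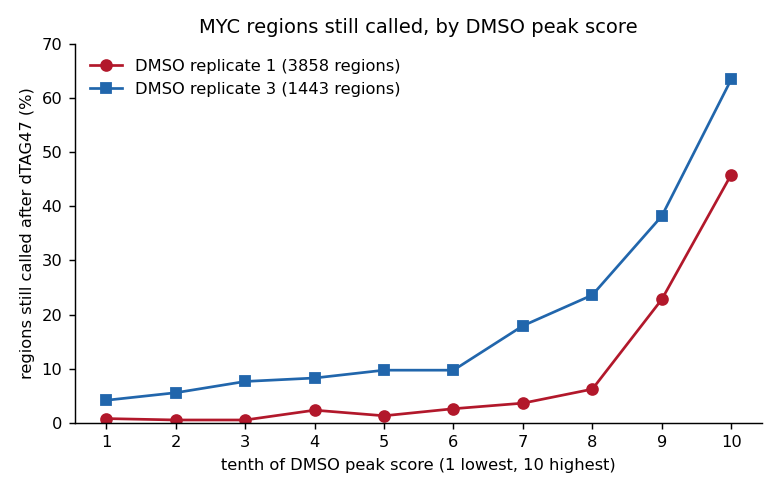
Share of MYC regions still called after dTAG47 (vertical axis, percent) by decile of DMSO peak score (horizontal axis), with 1 line for each DMSO library. In both lines most of the still-called regions sit in the last 2 deciles, reaching 45.9% in replicate 1 and 63.4% in replicate 3.

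Where a region had a score in replicate 1 of both treatments (306 regions), the median was 69 in dTAG47 and 230.5 in DMSO, and the dTAG47 score was 31.8% of the DMSO score at the median. In replicate 3 (107 regions) the medians were 59 in dTAG47 and 132 in DMSO. The dTAG47 score exceeded the DMSO score in 20 of 306 regions in replicate 1 and in 16 of 107 in replicate 3. Regions with a start site within 1000 bases of the midpoint were mostly below equality. In replicate 3 their medians were 55 in dTAG47 and 132 in DMSO, and 14 of 99 were higher in dTAG47. Most of the 16 regions higher in that replicate were thus at start sites. In replicate 1 their medians were 67 in dTAG47 and 234.5 in DMSO (274 regions, 7 of them higher in dTAG47). The 14 regions of the chromosomes with no start site nearby had replicate 1 medians of 97 in dTAG47 and 139 in DMSO, and 6 of the 14 were higher in dTAG47.

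All 5 pentamer regions were among those 6. Their dTAG47 replicate 1 scores were 346 at chr10 and 504, 254, 1411 and 538 at chr16, against DMSO replicate 1 scores of 147 at chr10 and 140, 35, 997 and 385 at chr16. None of the 5 had a peak in DMSO replicate 3. The 3 regions called in dTAG47 replicate 2 were all from this set, with scores of up to 597 in that library. On contigs outside the chromosomes 6 of 13 regions were likewise higher in dTAG47 replicate 1. Of these, 5 were on 1 contig, with scores of 560 to 1809 in dTAG47 and 371 to 1222 in DMSO, and the other one scored 707 in dTAG47 and 391 in DMSO.

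**Figure D2:**
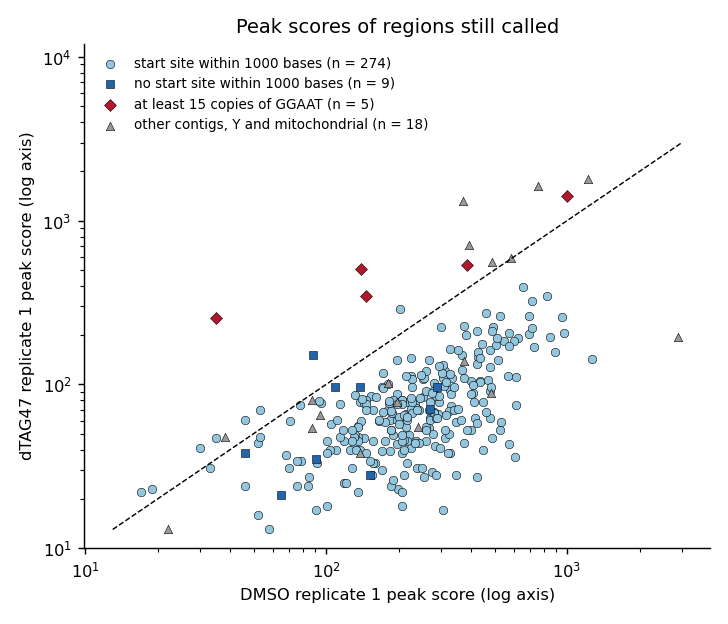
Peak score in dTAG47 replicate 1 (vertical log axis) against DMSO replicate 1 (horizontal log axis) for the 306 still-called regions with both, by location and repeat content, with the dashed line marking equal scores. The 274 regions at start sites lie mostly under the line (7 above it), and the 5 regions rich in GGAAT all lie above it.

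The 4 mitochondrial regions had DMSO replicate 1 scores of 38 to 2901 and dTAG47 replicate 1 scores of 48 to 194, and no peak in replicate 3 of either treatment. These were left out of the counts by location.

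At the edge of the rule the overlaps were well over 1 base. The region with the shortest overlap, chr9:124131805-124132145 at STOM, which encodes the membrane protein stomatin, shared 193 bases with a dTAG47 peak and had scores of 22 in dTAG47 replicate 1 and 17 in DMSO replicate 1. The next 4 were at AHCY (225 bases), GNG12-AS1 (244), ZNF76 (253) and APMAP (276). Just outside, regions that were not called lay 292 bases from a dTAG47 peak at ZFAS1 and ZNFX1, 426 at UBE2D3, 437 at HNRNPF and 485 at LRSAM1 and RPL12. Still-called regions were a median of 832 bases wide and their dTAG47 peaks 427, with midpoints 86 bases apart at the median, and 80 regions held 2 or more dTAG47 peaks.

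Still-called regions were promoter regions almost throughout. Of the 337 on numbered chromosomes and X, 319 had an annotated start site within 1000 bases of the midpoint, 94.7% (95% exact Clopper-Pearson interval 91.7 to 96.8%), against 91.97% (89.8 to 93.8%) of the 760 regions of both DMSO libraries that were not called and 78.5% (77.0 to 79.9%) of the 3175 of 1 DMSO library. These intervals cover counting error only, and neighbouring regions are not independent. Start sites on both strands stood within that distance at 47.5% (42.04 to 53.0%) of still-called regions, against 38.9% (35.5 to 42.5%) and 28.9% (27.3 to 30.5%). Whether such start sites point away from each other was not checked. The median distance from midpoint to start was 101 bases, against 131.5 and 199. By annotation the midpoint was in an untranslated exon in 31.2%, in an intron in 27.6%, in a non-coding exon in 18.7%, between genes in 12.2% and in a coding exon in 10.4%.

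The share of regions with the E-box near the midpoint was alike at still-called regions and at regions of both DMSO libraries that were not called, but not at every score. The motif CACGTG stood no more than 100 bases from the midpoint in 89 of 337 still-called regions, 26.4% (21.8 to 31.5%), against 26.3% (23.2 to 29.6%) of regions of both DMSO libraries that were not called and 16.4% (15.1 to 17.7%) of regions of 1 DMSO library. Positions 10000 bases away carried it in 2.82% for still-called regions, against 1.78% and 2.14%. Around the midpoint of the strongest DMSO replicate 1 peak the shares were 27.5% (22.8 to 32.7%), against 28.6% (25.4 to 31.9%) and 16.6% (15.3 to 18.1%). By tercile of the lower DMSO score, among regions of both DMSO libraries, the share was 29.3% of still-called and 38.1% of not called regions in the top tercile, 29.7% and 28.0% in the middle and 15.8% and 18.03% in the bottom one. These differences were not tested.

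Of the 337 regions, 118 held no CACGTG anywhere, 148 held 1 copy, 50 held 2, 12 held 3 and 9 held 4 or more. Within 100 bases of the dTAG47 peak's own midpoint CACGTG was found in 133, or 39.5%. The variant CACGCG, searched on both strands like the other motifs, lay near the midpoint of 22.6% of still-called regions, against 25% of regions of both DMSO libraries that were not called. GGGCGG, the core of SP1 sites, was at 51.9%, against 56.2%, and CCGGAAGT, a site for ETS-family factors, was at 5.04% (2.97 to 7.95%), against 2.24% (1.31 to 3.56%). A match is a description of these letters only.

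Nearly all still-called regions overlapped an ATAC-seq peak in both treatments. An ATAC-seq peak covered part of the region in 95.5, 93.9 and 95.3% of still-called regions in dTAG47 libraries and in 97.2, 96.1 and 93.6% in DMSO libraries, so the groups overlapped. The means were 94.9% ± 0.895 in dTAG47 and 95.6% ± 1.85 in DMSO (SD, n = 3 each), a difference of −0.743 percentage points (exact two-sided permutation test, p = 0.6, where 3 against 3 libraries cannot go below 0.1). For regions of both DMSO libraries that were not called the means were 92.1% in dTAG47 and 91.6% in DMSO (exact permutation test, p = 0.8, n = 3 each). All 6 ATAC libraries had a peak at 322 of the 359 regions, the 5 pentamer regions included, and 5 regions had none. The 359 regions include 4 mitochondrial ones and 17 on other contigs. All 6 libraries had a peak at each of the 4 and at 12 of the 17. With the stricter demand that an ATAC peak cover at least 50% of the region the difference turned to 0.836, and without ATAC DMSO replicate 1 it was 0.0464.

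The 20 top-ranked regions were at SNHG15, ENSG00000286874, SNX5 and MGME1, ENSG00000289109, RPL23A, DDX42 and CCDC47, PPRC1, MAT2A, SNHG17, EIF5A, NPM1, NME1, TMA16, PCBP1, MRPL3, TFAP4, ING5, IARS1, RACK1, and RPL35 with ARPC5L. The first, chr7:45025633-45026565 at SNHG15, had scores of 259 and 235 in dTAG47 replicates 1 and 3 and 954 and 549 in DMSO replicates 1 and 3. The region at MAT2A, the enzyme that makes S-adenosylmethionine, was chr2:85765520-85767270 and scored 91 and 112 in dTAG47 and 481 and 311 in DMSO. That at NPM1, a nucleolar chaperone of ribosome assembly, was chr5:170814475-170815886 and scored 205 and 119 in dTAG47 and 573 and 294 in DMSO. In each of these regions both dTAG47 scores were below both DMSO scores. The highest dTAG47 replicate 1 score of the 20 was 391 at DDX42 and CCDC47, where DMSO replicate 1 scored 658. The region at the MIR17HG host gene of the miR-17-92 microRNAs, outside the top 20 and named after its values were seen, scored 124 in dTAG47 replicate 1 and 305 and 270 in DMSO.

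Among protein-coding genes at still-called regions, RNA was lower after dTAG47 far more often than higher. A gene was placed at a region when one of its start sites lay within 1000 bases of the midpoint. This gave 384 coding genes, of which 365 were in the RNA-seq table and 355 passed the filter on low counts. In DTMYC cells 50 of the 355 fell and 2 rose at an adjusted p under 0.05 (edgeR quasi-likelihood test over all 13401 genes), that is 14.1% and 0.563%, where 4.44% of all genes fell and 4.27% rose. The log2 fold change was negative for 295 of the 355 (83.1%), against 44.2% of all genes, with a median of −0.17, against 0.03. Leaving out 1 library moved the count of members that changed between 16 (without DTMYC dTAG47 replicate 2) and 212 (without parental DMSO replicate 3, of which 198 fell). Over all settings tried the share of negative values at these genes was between 80% and 87.6%. Leaving out any other single DTMYC library gave 17 to 31. In bulk samples, fewer cells that express a gene and less RNA per cell cannot be told apart.

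Genes at regions of both DMSO libraries that were not called had a similar share of falls. At regions of both DMSO libraries that were not called, 121 of 741 genes fell (16.3%) and 9 rose, with a median of −0.13. At regions of 1 DMSO library 186 of 2233 fell (8.33%), with a median of −0.03, and of 10072 genes at no region 238 fell (2.36%), with a median of 0.07. The groups of genes also differed in RNA level, whose median was 30.5 CPM per kilobase at still-called regions, against 16.8 at regions of both DMSO libraries that were not called, 12.2 at regions of 1 and 3.51 at no region, and the part of RNA level in these shares was not tested. Within the top, middle and bottom tercile of the lower DMSO score, 16.8%, 15.9% and 8.51% of genes at still-called regions fell, against 16.4%, 18.3% and 13.7% of genes at regions not called. Among genes at still-called regions, 17 of 89 at regions with CACGTG near the midpoint fell (19.1%), against 33 of 266 at regions without it (12.4%). No test was made of the differences between these classes, since genes are not replicates of a condition.

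Parental cells, which lack the degradable MYC, showed no called change at these genes. Of the 355 none passed the threshold in parental cells by edgeR (background 0.0224% fell and 0.104% rose), 58 were lower and 15 higher at an unadjusted p under 0.05, and DESeq2 called 15. Without parental DMSO replicate 3, 88 of the 355 passed (58 lower and 30 higher), and without parental DMSO replicate 2, 17 did. The median log2 fold change in parental cells was −0.10 at the members, against −0.05 over all genes. The response differed between the lines for 12 of the 355 by the interaction term, 10 lower and 2 higher in DTMYC (background 0.59% and 0.597%), for 0 or 1 without any single DTMYC or parental dTAG47 library, for 32 without parental DMSO replicate 2 and for 115 without parental DMSO replicate 3.

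**Figure D3:**
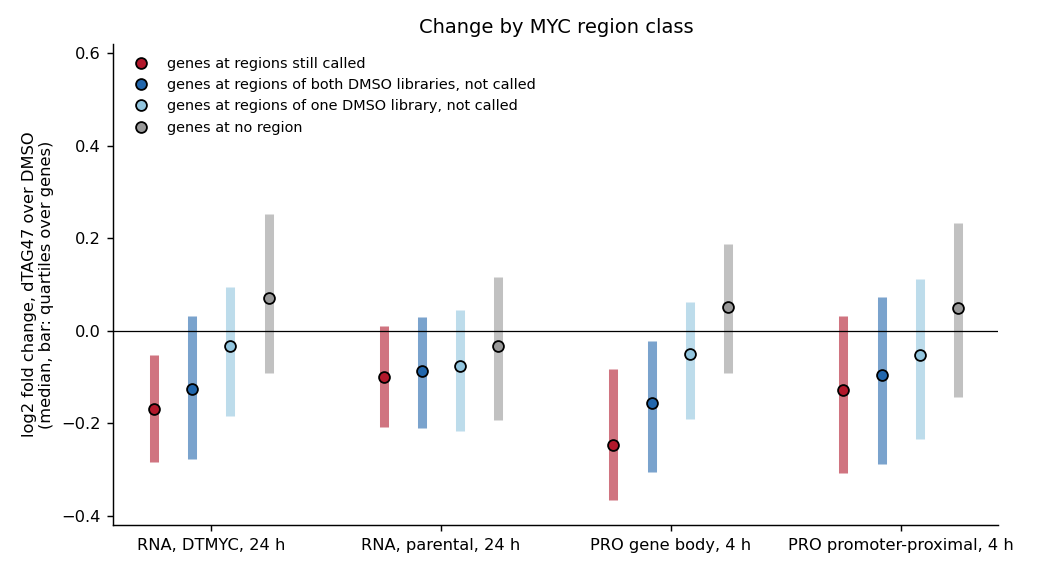
Log2 fold change of dTAG47 over DMSO (vertical axis) by class of MYC region, for RNA in both lines and for PRO-seq in gene bodies and near promoters, with points at the median and bars over the quartiles of genes. In DTMYC RNA the medians were −0.17 at regions still called and −0.13 at regions of both DMSO libraries not called, and in PRO-seq gene bodies −0.25 and −0.16.

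The genes that fell include nucleolar proteins, a glycolytic enzyme, purine enzymes and transcription machinery. In 211 of the 355 genes (59.4%) the 3 dTAG47 libraries lay below the 3 DMSO libraries of DTMYC cells, against 19.99% of all genes tested, of which 4.44% fell by the test. The 50 that fell were among the 211, with log2 fold changes of −0.73 to −0.25 and a median of −0.40, while their median in parental cells was −0.06. NOP56, a core protein of box C/D snoRNA particles, was at 218, 227 and 220 CPM in DTMYC dTAG47 libraries and 338, 300 and 347 CPM in DTMYC DMSO libraries. Its log2 fold change was −0.57 ± 0.0771 (SE, adjusted p = 0.00182, edgeR), and in parental cells it was at 243, 257 and 238 CPM in dTAG47 and 252, 263 and 228 CPM in DMSO, where the groups overlap. HK2, the hexokinase that starts glycolysis, was at 129, 130 and 125 CPM in DTMYC dTAG47 libraries and 184, 170.7 and 185 CPM in DTMYC DMSO libraries (−0.49 ± 0.0703, SE, adjusted p = 0.00248, edgeR).

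MYBBP1A, a nucleolar protein that binds MYB, was at 288, 276 and 267 CPM in DTMYC dTAG47 libraries and 450, 414 and 464 CPM in DTMYC DMSO libraries. Its fold change of −0.68 on the log2 scale was among the larger falls (adjusted p = 0.00315, edgeR). TFAP4, a transcription factor that binds a related E-box, was at 28.8, 26.3 and 25.8 CPM in DTMYC dTAG47 libraries and 42.4, 41.9 and 42.4 CPM in DTMYC DMSO libraries (−0.65, adjusted p = 0.00386, edgeR). PLD6, a phospholipase of the mitochondrial surface, fell by 0.73 on the log2 scale, the largest fall of the 50 (adjusted p = 0.0049, edgeR). The remaining genes of the 12 with the smallest adjusted p were C10orf2, the mitochondrial DNA helicase (−0.60), GART, a purine synthesis enzyme (−0.40), YBX3, an RNA-binding protein (−0.57), NOP16, a nucleolar protein (−0.64), POLR3E, a subunit of RNA polymerase III (−0.43), DCTPP1, a dCTP pyrophosphatase (−0.60), and MRTO4, a factor of large subunit assembly (−0.50).

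Both genes that rose were changed by similar amounts, and each lost its call in 10 of 17 other settings. Neither was called when any single DTMYC library was left out. MFSD11 was at 34.7, 35.7 and 35.1 CPM in DTMYC dTAG47 libraries and 27.8, 28.8 and 26.1 CPM in DTMYC DMSO libraries (0.35, adjusted p = 0.0341, edgeR). TAF12, a subunit of the general transcription factor TFIID, was at 28.9, 30.3 and 29.3 CPM in DTMYC dTAG47 libraries and 21.7, 24.2 and 23.7 CPM in DTMYC DMSO libraries (0.35, adjusted p = 0.0428, edgeR). Of the coding genes at the 20 top-ranked regions, MAT2A (−0.32, adjusted p = 0.012), MRPL3, a mitochondrial ribosomal protein (−0.32, adjusted p = 0.0317), and TFAP4 fell by the same edgeR test, while NPM1 had a log2 fold change of −0.29 (adjusted p = 0.0888) and −0.37 in parental cells.

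**Figure D4:**
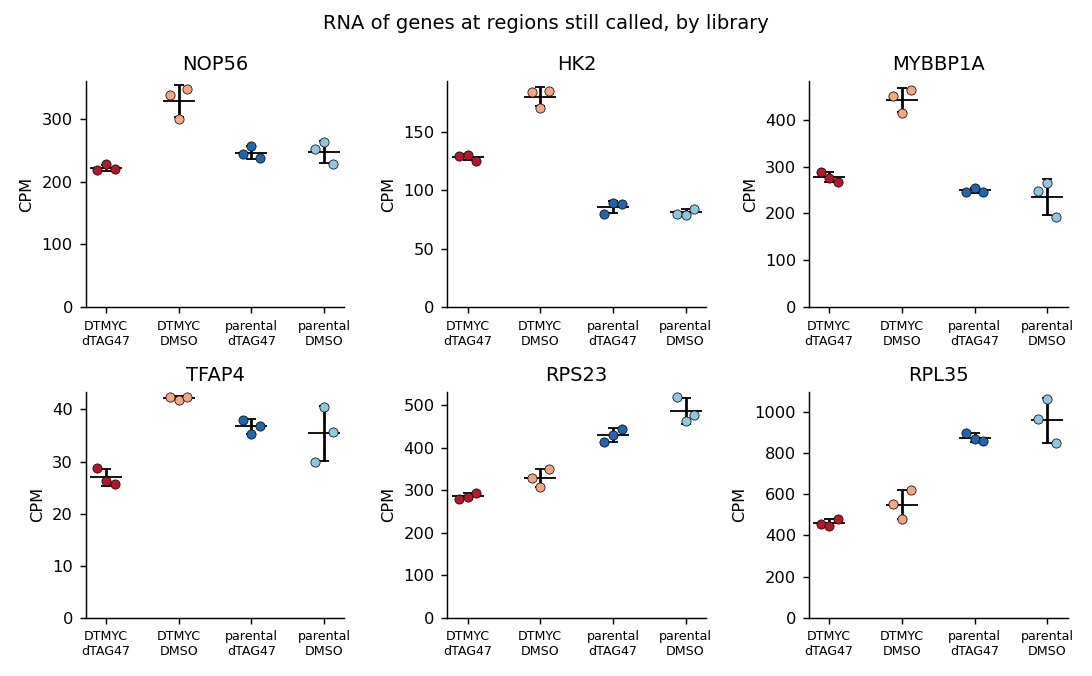
RNA level (CPM, vertical axis) of 6 genes at still-called regions in each of 12 libraries, grouped as DTMYC dTAG47, DTMYC DMSO, parental dTAG47 and parental DMSO, with points for libraries and bars for the mean and SD of 3. NOP56, HK2, MYBBP1A and TFAP4 are lower in DTMYC dTAG47 than in DTMYC DMSO with no overlap, while RPL35 overlaps and RPS23 lies apart by less.

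Ribosomal protein genes were the largest listed group at still-called regions and none of them passed the RNA test over all 12 libraries. Of 74 tested ribosomal protein genes, 68 were at some DMSO region and 43 of those 68 (63.2%) at a still-called one, whereas 355 of 3329 genes at any region (10.7%) were. All 43 had negative values in DTMYC cells, of −0.33 to −0.05, none at an adjusted p under 0.05 (the lowest 0.0982, edgeR), 10 at an unadjusted p under 0.05 and none by DESeq2, and 39 of the 43 were also negative in parental cells. Of the 43, 27 fell without parental DMSO replicate 3 and 38 when the 6 DTMYC libraries were fitted alone. RPS23 was at 280, 284 and 294 CPM in DTMYC dTAG47 libraries and 329, 308 and 350 CPM in DTMYC DMSO libraries, and at 413, 431 and 445 CPM in parental dTAG47 libraries and 520, 462 and 477 CPM in parental DMSO libraries. Its log2 fold changes, −0.20 in DTMYC and −0.18 in parental cells, were nearly equal. RPL35 was at 454, 448 and 482 CPM in DTMYC dTAG47 libraries and 551, 478 and 619 CPM in DTMYC DMSO libraries, which overlap (−0.25, adjusted p = 0.142, edgeR).

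These genes also have high RNA levels and high MYC scores. Their median level was 255 CPM per kilobase, and in the top quintile of genes by level (39.8 CPM per kilobase and more) 41 of 63 ribosomal protein genes (65.1%) were at a still-called region, against 109 of 603 other genes (18.1%). In the top quintile by DMSO peak score (135 and more) it was 38 of 51 ribosomal protein genes (74.5%), against 247 of 615 others (40.2%). CACGTG lay near the midpoint for 7 of the 43 (16.3%). Many ribosomal protein genes have processed pseudogenes, and whether the authors' counting split reads between them was not tested.

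The host genes of snoRNAs were the other group with a large share. Of 40 protein-coding hosts at any DMSO region 26 (65.0%) were at a still-called one, with 3 falls, NOP56, GNL3 (−0.53, adjusted p = 0.0175, edgeR) and HSPA8 (−0.28, adjusted p = 0.0188, edgeR), and several of these hosts are also ribosomal protein genes. Of 28 long non-coding genes named SNHG in the annotation, a grouping made after the values were seen, 20 were at a DMSO region and 13 of these at a still-called one, SNHG1, SNHG3, SNHG4, SNHG6, SNHG8, SNHG9, SNHG10, SNHG15, SNHG16, SNHG17, SNHG19, SNHG20 and SNHG26. The RNA-seq table holds protein-coding genes only, so these were measured in PRO-seq alone.

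**Figure D5:**
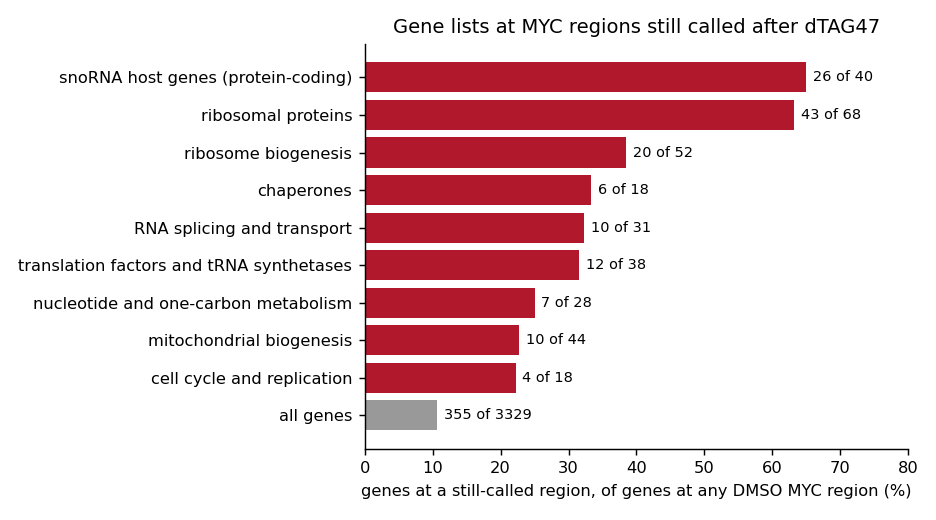
Share of genes at a still-called region among tested genes at any DMSO MYC region (horizontal axis, percent), by gene list, with counts beside the bars and all genes in grey. Ribosomal proteins (43 of 68) and protein-coding snoRNA hosts (26 of 40) have the longest bars, against 355 of 3329 for all genes. The MYC network list (1 of 8) and the interferon list (0 of 2) are not drawn.

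Ribosome biogenesis gave the largest number of falls of any list at still-called regions. In the whole list 32 of 58 tested genes fell and none rose. Of the 20 at still-called regions 9 fell and none rose, with a median of −0.38, and at regions of both DMSO libraries that were not called 9 of 12 fell, with a median of −0.47. Besides NOP56, NOP16, MRTO4 and GNL3 these were TSR1, a factor of small subunit maturation (−0.42, adjusted p = 0.00832, edgeR), and, named after their values were seen, PES1, of the PeBoW complex of large subunit maturation (−0.49, adjusted p = 0.00983, edgeR), PNO1, RRS1 and POLR1B, the second-largest subunit of RNA polymerase I. Without parental DMSO replicate 3 all 20 fell, and without any single DTMYC library 5 to 7 fell.

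The other lists had fewer members. In nucleotide and one-carbon metabolism 4 of 7 fell, GART, MAT2A, AHCY and PAICS (−0.31 each for AHCY and PAICS). In mitochondrial biogenesis 4 of 10 fell, C10orf2, MRPL3 and the chaperonin pair HSPE1 (−0.43) and HSPD1 (−0.42), which share 1 still-called region between them. Among chaperones 2 of 6 fell, HSP90AB1 (−0.27) and HSPA8. For RNA splicing it was 1 of 10, HNRNPF (−0.31), for translation factors 1 of 12, EIF3D (−0.25), and for cell cycle 1 of 4, MCM4, a subunit of the replicative helicase (−0.27). Of the MYC network 8 genes were at any DMSO region, and only MNT, a MAX partner that opposes MYC, was at a still-called one. That is 12.5%, near the 10.7% of all genes. No interferon gene was at a still-called region, but only 2 were at any DMSO region, too few to read. Over the whole lists, 20 of 41 tested nucleotide, 24 of 58 mitochondrial and 6 of 21 chaperone genes fell. For splicing it was 6 of 34, for translation 8 of 55 and for cell cycle 5 of 34 genes. These include falls at regions not called, with 6 of 16 translation factors and 8 of 15 mitochondrial genes at regions of both DMSO libraries. Without any single DTMYC library, 1 to 3 nucleotide, 1 or 2 mitochondrial, 0 to 2 chaperone and 0 or 1 splicing genes fell at still-called regions, and no translation or cell cycle gene did. Without parental DMSO replicate 3 the falls were 7 nucleotide, 8 mitochondrial, 6 chaperone, 4 splicing, 8 translation and 2 cell cycle genes.

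Nascent transcription through gene bodies at 4 h was lower at most of these genes. Of 340 PRO-seq entries with their start at a still-called region none passed the adjusted threshold (edgeR, 2 against 2 libraries, background 0% in either direction), 15 did by DESeq2, and 128 were lower and none higher at an unadjusted p under 0.05. That is 37.6%, where 5.92% of all entries were lower and 3.77% higher at that level. Without DMSO replicate 2, dTAG47 replicate 1 or dTAG47 replicate 2 the edgeR test called 15, 11 and 2 entries in that order, on the assumption that the lone library of a group varies like the other group's. The log2 fold change was negative for 297 of 340 (87.4%), with a median of −0.25, against 0.02 over all entries. At regions of both DMSO libraries that were not called 26.4% were lower at that level, with a median of −0.16, at regions of 1 DMSO library 10.8%, and at no region 2.59%.

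The 4 entries with the smallest p were ECE2, an endothelin-converting enzyme, POLR1B, WDR35, a protein of ciliary transport, and EPB41L4A-AS1, a non-coding RNA that hosts a snoRNA. POLR1B was at 108 and 99.1 CPM in dTAG47 libraries and 165 and 155 CPM in DMSO libraries, and ECE2 at 30.9 and 32.3 CPM in dTAG47 libraries and 59.9 and 53.4 CPM in DMSO libraries. Their log2 fold changes of −0.63 and −0.84 had unadjusted p of 0.00049 and 0.000311 and adjusted p of 0.389 (edgeR), so neither passed. SNHG15 was at 82.8 and 69.99 CPM in dTAG47 libraries and 122.8 and 108 CPM in DMSO libraries (−0.60, adjusted p = 0.409, edgeR), and 4 of the 5 SNHG genes at still-called regions that had a value were negative, as were 4 of 4 elsewhere.

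Early nascent and later mRNA values had the same sign for most genes. Of the 50 genes whose RNA fell, 42 had a gene body value, and all 42 were negative, with a median of −0.42 and 32 at an unadjusted p under 0.05. Over all genes with both measures, 537 of the 552 whose RNA fell were negative in gene bodies (97.3%). Of the 297 genes at still-called regions with both measures, 245 were negative in both (82.5%), against 32.9% of all 11281 genes with both. NOP56 gene bodies were at 140 and 105 CPM in dTAG47 libraries and 197 and 161 CPM in DMSO libraries (−0.54, adjusted p = 0.44, edgeR), and MYBBP1A at 86.5 and 67.8 CPM in dTAG47 libraries and 153 and 114 CPM in DMSO libraries (−0.79, adjusted p = 0.421, edgeR). In both genes the 2 dTAG47 libraries lay below the 2 DMSO libraries. Ribosomal protein genes, whose RNA did not pass with all 12 libraries, had negative gene body values for 42 of 42 entries at still-called regions, with a median of −0.30 and 24 (57.1%) at an unadjusted p under 0.05, and for 26 of 26 entries elsewhere, with a median of −0.34 and 65.4%.

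Promoter-proximal PRO-seq counts, from polymerase near the start site, changed less. Of 340 entries none passed the adjusted threshold by edgeR (background 0%) or by DESeq2, 42 (12.4%) were lower and 5 higher at an unadjusted p under 0.05, where 3.76% of all entries were lower and 2.71% higher at that level, and the median was −0.13. The smallest p were at C9orf123 (−0.74), HSPD1 (−0.57), EXOSC5, a subunit of the RNA exosome (−0.66), and PLD6 (−0.64). One of the 5 higher entries, named after its values were seen, was POLR3E, at 7288 and 6862 CPM in dTAG47 libraries and 5964 and 4880 CPM in DMSO libraries (0.38, adjusted p = 0.665, edgeR). Its gene body was at 96.2 and 87.2 CPM in dTAG47 libraries and 121 and 102 CPM in DMSO libraries, and its RNA fell, so its promoter-proximal value had the opposite sign.

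Divergent partners at a shared region did not always move together. GNL3, a nucleolar GTPase, and PBRM1, a subunit of the PBAF form of SWI/SNF, start back to back at a still-called region, chr3:52719778-52720580, and were chosen after their values were seen. GNL3 RNA was at 166, 171.01 and 164 CPM in DTMYC dTAG47 libraries and 241, 243 and 240 CPM in DTMYC DMSO libraries, with no overlap. PBRM1 RNA was at 105, 111 and 114 CPM in DTMYC dTAG47 libraries and 96.5, 106 and 97.4 CPM in DTMYC DMSO libraries, which overlap (0.13, adjusted p = 0.807, edgeR). In PRO-seq promoter-proximal counts GNL3 was at 142 and 165 CPM in dTAG47 libraries and 222 and 187 CPM in DMSO libraries, and PBRM1 at 133 and 115 CPM in dTAG47 libraries and 91.1 and 77.2 CPM in DMSO libraries, neither of them past the adjusted threshold.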

How the data were processed

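Per the labels, ChIP-seq, ATAC-seq, PRO-seq and RNA-seq were made from cultured G401 cells. The submitters' processing notes name cutadapt, Bowtie2, STAR, featureCounts, MACS2, DiffBind and DESeq2 and the build hg19, with no versions or roles. The authors deposited raw read counts per gene (RNA-seq, protein-coding genes) and per promoter-proximal region and gene body (PRO-seq). The authors' peak lists, deposited per library, give a score of 10 times −log10 q, and no summit, so midpoints were used. The PRO-seq table also holds a gene body density signal deposited by the authors, which was not used.

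Regions were annotated on GRCh37 with GENCODE start sites. Counts were tested with edgeR 4.0.16 (R 4.3.3): filterByExpr, TMM, quasi-likelihood F-test, two-sided, Benjamini-Hochberg adjustment, threshold 0.05, with all 12 RNA-seq libraries in 1 fit and 4 PRO-seq libraries in each other fit. The steps were tested on simulated data. CPM values are counts scaled by TMM library size, and per-length levels divide them by the deposited feature length. DESeq2 1.42.0, other scaling, filters, a replicate block and leaving out each library were alternatives. Scripts used Python 3.11.15 with pandas 2.3.3, scipy 1.17.1 and pysam 0.24.0.

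The regions, gene lists and rules were chosen with earlier results of these data known. Named regions were the 20 with the highest lower DMSO score among those with peaks in both DMSO and at least 2 dTAG47 libraries, the 5 on either side of the rule's edge (1 of them is not reported here), and contigs. Named genes were the 12 with the smallest adjusted p in each direction, up to 4 per list, and the 4 with the smallest p in PRO-seq. SMARCB1 is not analysed here. Gene symbols are those of the deposited tables, with C10orf2 now called TWNK.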

Additional observations from a re-analysis of the deposited data

Results flagged for a closer look

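For 12 genes at still-called regions the response to dTAG47 differed between DTMYC and parental cells, by the interaction term of edgeR's quasi-likelihood fit over all genes (log2 difference of responses, DTMYC minus parental, adjusted p under 0.05). Of these, 10 had a lower response in DTMYC: NOP56 (−0.56, adjusted p = 0.0379), HK2 (−0.57, 0.0315), C10orf2 (−0.65, 0.0351), YBX3 (−0.55, 0.0473), MYBBP1A (−0.76, 0.0351), TFAP4 (−0.70, 0.041), TSR1 (−0.55, 0.0396), the helicase-like ZNFX1 (−0.52, 0.0351), the RNA methyltransferase NSUN2 (−0.48, 0.0351) and MNT (−0.61, 0.0396). MNT RNA was at 31.9, 31.7 and 28.7 CPM in DTMYC dTAG47 libraries and 36.997, 37.9 and 37.7 CPM in DTMYC DMSO libraries, and at 47.2, 45.7 and 48.5 CPM in parental dTAG47 libraries and 37.9, 41.4 and 33.8 CPM in parental DMSO libraries. It was thus lower in DTMYC and higher in parental cells, with no overlap in either, although neither line's own change passed the threshold (adjusted p = 0.0597 and 0.126, edgeR).

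The other two had a higher response in DTMYC. ANKMY2 (0.73, adjusted p = 0.041, edgeR) was at 52.6, 50.5 and 50.5 CPM in DTMYC dTAG47 libraries and 39.4, 40.9 and 41.1 CPM in DTMYC DMSO libraries, and at 12.6, 13.1 and 13.3 CPM in parental dTAG47 libraries and 16.3, 14.5 and 20.2 CPM in parental DMSO libraries. ATP6V1D, a subunit of the vacuolar proton pump, had a difference of 0.64 (adjusted p = 0.0425, edgeR). Without any single DTMYC or parental dTAG47 library 0 or 1 such gene was left, and without parental DMSO replicate 3 there were 115.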

How the results depend on the processing

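The number of still-called regions was 222 when overlap of at least 50% both ways was asked, and 130 to 359 when 1 ChIP-seq library was left out. The share at a start site was 86.9% with coding starts only (92.6 to 97.4% without 1 library). The share with CACGTG was 32.2% at 50% overlap, 16.0% within 50 bases, 51.0% within 250 and 65.0% anywhere (20.7 to 37.4% without 1 library). The ATAC-seq difference turned from −0.743 to 0.836 when the peak had to cover 50% of the region and to 0.0464 without ATAC DMSO replicate 1 (−1.76 to 0.0464 without 1 library), with exact permutation p of 0.1 to 1 over these settings.

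Of genes at still-called regions, 244 changed in DTMYC RNA when only that line's 6 libraries were fitted (4593 genes for the result RNA-seq genes changed in DTMYC cells, all genes), 16 to 212 without 1 library (329 to 3951 of all genes), and 19 to 44 when 1 dTAG47 ChIP-seq library, replicate 1 or 3, was left out of the regions. For parental cells DESeq2 gave 15 at the members and 315 in all, RLE scaling 7 in all, the 6 parental libraries alone 0 in all, and leaving out 1 library 0 to 88 at the members and 0 to 2718 in all. For the difference of responses DESeq2 gave 21 and 544, RLE scaling 4 and 63, the weaker filter 7 and 102, and leaving out 1 library 0 to 115 and 5 to 2417. For PRO-seq gene bodies DESeq2 gave 15 and 66, the weaker filter 2 in all, and leaving out 1 library 0 to 15 and 5 to 44. For promoter-proximal regions DESeq2 and the weaker filter gave 2 each in all, and leaving out 1 library 0 to 1 and 1 to 5. The cause of these differences was not tested.

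The replicate numbers were not taken as pairing. Same-numbered DTMYC RNA libraries correlated at 0.085, −0.011 and −0.048 and parental ones at 0.324, 0.048 and 0.367, and PRO-seq has 2 pairs (0.639 in gene bodies, 0.352 near promoters). With a replicate block 66 members changed in DTMYC RNA, 27 genes in all in parental RNA and 263 in the difference of responses, 237 members and 4360 in all in PRO-seq gene bodies, and 28 members and 262 in all near promoters.

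Of the values of named genes under another setting 319 kept their call, 45 gained one and 21 lost one, and when 1 library was left out 665 kept it, 39 gained and 204 lost one. None changed direction. The depth of the peak lists is unknown, so an absent dTAG47 peak is not absence of MYC, and the 2 PRO-seq libraries per group limit that test.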

Other observations

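Some of the highest DMSO scores belonged to regions with no dTAG47 peak, and these were mostly scored in 1 library. They are named here by the nearest annotated start site, which need not belong to the gene under the peak. The region named for RPS29 scored 62264 in DMSO replicate 1 and 67 in DMSO replicate 3. RN7SK, the non-coding RNA that holds P-TEFb inactive, scored 34256 in DMSO replicate 1, a region near PARP2 scored 30040 and RMRP, the RNA of RNase MRP, scored 12374, each with no peak in DMSO replicate 3 and with an ATAC-seq peak in all 6 libraries. The next were the pseudogenes EEF1A1P5 (3393), RPL13AP5 (3044), FTLP3 (2088) and RPS19P1 (1922) and the gene EEF1A1 (1422), none with a peak in DMSO replicate 3 or in any ATAC-seq library.

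Peaks of dTAG47 libraries outside the DMSO regions were of another kind than those inside. Of 95 such peaks in dTAG47 replicate 1, 60 were on numbered chromosomes and X, of which 8.33% had a start site within 1000 bases, 6.67% had CACGTG within 100 bases, 73.3% had an assembly gap within 1 Mb and 10 were rich in GGAAT. Of 64 in dTAG47 replicate 3, 41 were on numbered chromosomes and X, with 4.88% at a start site, 2.44% with CACGTG and 68.3% near a gap. Replicate 2 had 4 peaks outside, all within 1 Mb of a gap.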
